A study of Chlorocebus sabaeus with 32 samples.

Results

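Hippocampal RNA of young vervet monkeys was compared between 2 sets of libraries that differ in a number carried in their titles. Of 32 libraries in the series, 16 have a title that starts with 2010 and goes on with further digits, the letters VMT and a number. The 9 libraries with a VMT number of 20000 or more, from 30226 to 89077, are called the high set, and the 7 with a lower number, from 1643 to 12925, the low set. No number lies between 12925 and 30226. Read as a number, the digits that follow 2010 run from 4 to 59 in the low set and from 40 to 102 in the high set. The sets therefore overlap only in part in these digits as well. The labels give all 16 the same tissue, the same age class of under 1 year and no treatment. They do not say what the number, the opening digits or the digits that follow them stand for. They also do not state that the libraries come from separate animals. Each was taken as 1 animal, so p-values measure the spread between these libraries. Ribosomal RNA had been removed with Ribo-Zero Gold before stranded TruSeq libraries were made.

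No gene differed between the sets at an adjusted p of 0.05. Of 21488 genes tested with edgeR's quasi-likelihood test and Benjamini-Hochberg adjustment, 0 passed (0%), and the smallest adjusted p was 0.0717. At an unadjusted p under 0.05, 1361 genes were on the higher side in the high set (6.33%) and 1662 on the lower side (7.73%), 3023 in all (14.1%). Under upper quartile scaling these counts were 998 and 2002. limma-trend called 0 genes with 3016 at an unadjusted p under 0.05. DESeq2 called 198 of the 17738 genes to which it gave an adjusted p (1.12%), 38 of them higher (0.214%) and 160 lower (0.902%). Leaving out low replicate 7 gave 21 edgeR calls, leaving out high replicate 8 gave 2, and leaving out low replicate 2 or high replicate 9 gave 1 each. The gene groups below are therefore given as levels, counts and medians, and none of their members passed edgeR's test over all 16 libraries. The lists were chosen with earlier results of these data known, so their counts beside all genes are descriptions and no test.

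The libraries of the 2 sets differed in several ways. Gene counts per library ran from 14483577 to 18674022 in the high set and from 11403860 to 17493609 in the low set. Of 6 Y-linked gene rows, which mark male tissue, 5 were tested, and the other exceeded 100 counts in 0 libraries of either set. Y-linked counts, summed over the rows, were present in 7 of 9 high libraries and 1 of 7 low libraries, low replicate 7. Libraries without them had at most 26 such counts and the others at least 6621. Fisher's exact test of this split, two-sided and added after the data had been seen, gave p = 0.0406. The hippocampal genes PROX1 (dentate granule cells) and FIBCD1 (CA1 pyramidal cells) were detected in every library. Low replicate 2 had the lowest PROX1, 20.3 CPM (counts scaled to a common library size), against 69.3 to 188 CPM in the other libraries. It also had the lowest FIBCD1, 11.6 CPM against 74.1 to 203 CPM. Its summed level of striatal and thalamic genes was 1270 CPM, against 131 to 425 CPM in the other libraries. Its level of PENK, an opioid peptide precursor abundant in striatum, was 460 CPM. High replicate 3 had 392 CPM of TTR, the transthyretin of choroid plexus, against at most 15.7 CPM elsewhere. Without these 2 libraries the count of genes at an unadjusted p under 0.05 was 3531, and edgeR again called 0.

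The read counter reports, beside the gene rows, reads that fall in no annotated feature, in several features or at several places in the genome. In total-RNA libraries the first class holds, among others, reads from introns of unspliced RNA and from unannotated transcripts. The high set had the smaller share of it. Reads in no feature made up 51.8% to 58.9% of all reads in the high set (median 55.0%) and 54.9% to 62.4% in the low set (median 59.7%). The ranges overlapped, with 5 of 7 low libraries and 2 of 9 high libraries above 58%. The mean difference, high minus low, was -3.93 percentage points (55.2% ± 2.71 against 59.1% ± 3.01, SD, n = 9 and 7). The exact two-sided permutation test over 11440 regroupings gave p = 0.0194, and 0.0555 after Benjamini-Hochberg adjustment over 7 measures.

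The other shares lay the opposite way. Reads assigned to genes made up 32.2% to 38.3% in the high set (median 34.8%) and 30.5% to 35.8% in the low set (median 31.9%). Their means differed by 2.42 percentage points (exact permutation p = 0.0238, adjusted 0.0555). Taken over the reads outside the no-feature row, the share in genes lay the other way, with a difference of -1.67 percentage points. Reads with several alignments made up 8.06% to 11.1% against 6.38% to 10.1%, with a mean difference of 1.49 percentage points (exact permutation p = 0.0327, adjusted 0.0572). Ambiguous reads made up 0.140% ± 0.0103 (SD, n = 9) and 0.127% ± 0.00987 (SD, n = 7), a difference that gave an exact permutation p of 0.0194 (adjusted 0.0555). None of the 4 shares passed after adjustment, and they are parts of 1 total, so they are not separate results. Gene counts (exact permutation p = 0.109), all reads (p = 0.472 by the same test) and gene rows with a count (p = 0.280) differed less. The rows for low alignment quality and for unaligned reads held 0 in every library. By presence of Y-linked counts the ranges in no feature overlapped, but the share was mostly lower with such counts in both sets. In the high set, the 7 libraries with Y-linked counts had 51.8% to 58.2% of reads in no feature (median 55.0%) and the 2 without them 57.1% and 58.9%. In the low set, low replicate 7, the 1 library with them, had 55.6%. The 6 without them had 54.9% to 62.4% (median 60.4%), a range that holds both high libraries without Y-linked counts. Reads with several alignments lay the other way. In the high set they made up 8.06% to 11.1% with Y-linked counts (median 10.01%), and 8.61% and 8.81% without. Low replicate 7 had 10.1%, against 6.38% to 9.18% in the 6 others (median 7.65%). This split was not tested.

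**Figure D1:**
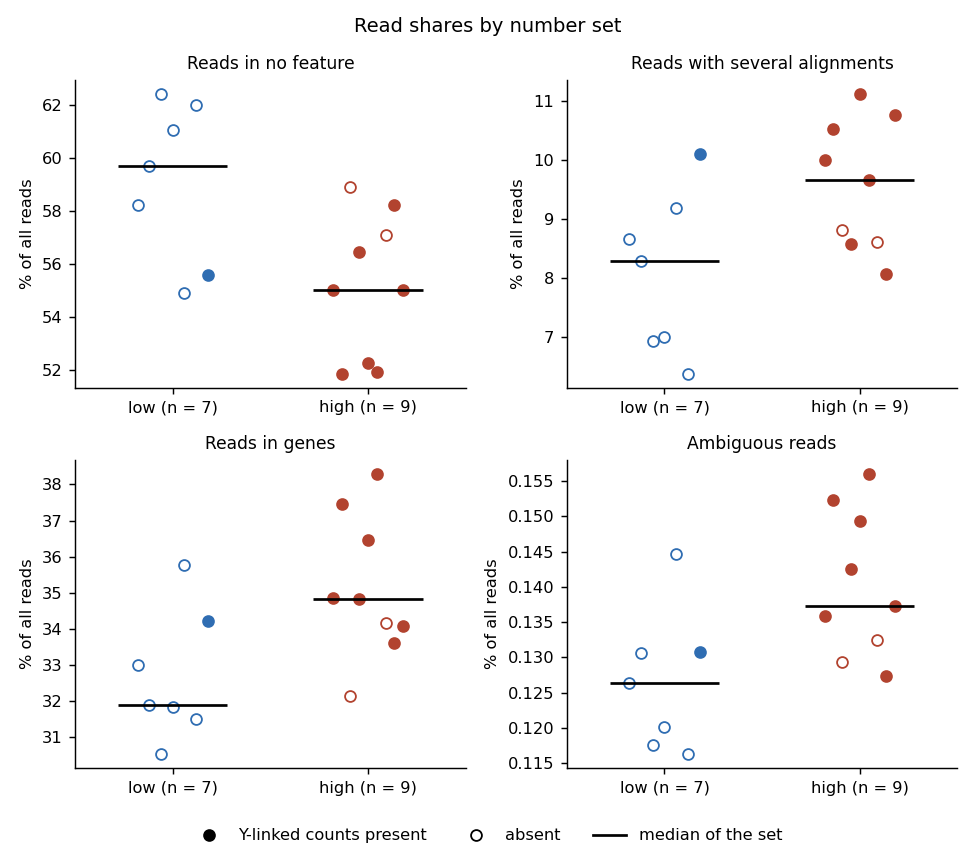
Shares of all reads, in percent, for reads in no feature, with several alignments, in genes and ambiguous between features; each point is 1 library (7 low, 9 high), filled where Y-linked counts were present, and the line is the set's median. The median share in no feature is 55.0% in the high set and 59.7% in the low set, and the ranges overlap in all 4 panels; the vertical axes do not start at 0.

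Transfer RNAs carry amino acids to the ribosome, and each is named by its amino acid and anticodon. Mature tRNAs are short, folded and chemically modified, so libraries built for long RNA capture them poorly, and their many near-identical gene copies make read placement uncertain. The table has 50 tRNA rows, and 47 of these names belong to more than 1 gene of the reference annotation, up to 20, so a row's counts cannot be tied to a locus. No sequence of them was available here.

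tRNA rows were more abundant in most high libraries. Summed over all 50 rows, they reached 25.2 to 46.1 CPM in the high set (median 37.7) and 20.3 to 27.1 CPM in the low set (median 23.3). High replicate 8, at 25.2 CPM, was the 1 high library within the range of the low set; the other 8 lay above every low library. These sums rest on 387 to 719 counts per high library and 240 to 462 per low library. The count filter kept 18 rows, some of them through the high set alone, so the filtered rows are no basis for a count. Without the filter 49 rows had counts, of which 44 had a positive log2 difference (89.8%, against 51.0% of 32748 genes), with a median of 0.80 against 0.01. At an unadjusted p under 0.05, 22 of the 49 were higher in the high set, against 5.52% of all genes in that fit, and 0 were lower, against 5.51%. In that fit the smallest adjusted p of a tRNA row by edgeR was 0.150.

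TRNAY-GUA, the tyrosine tRNA, had the smallest p of the tRNA rows. It was at 1.17 to 3.34 CPM in the high set (median 2.47) and 0.689 to 1.35 CPM in the low set (median 1.09). Only high replicate 8 was within the range of the low set. Its log2 difference was 1.23 ± 0.21 (SE; edgeR's adjusted p = 0.0717). DESeq2 called it (adjusted p = 0.000552), as did edgeR without low replicate 7 (adjusted p = 0.0388) or without high replicate 8 (adjusted p = 0.00989). In 29 of 32 alternative settings it was not called.

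TRNAR-CCU, an arginine tRNA, was at 1.04 to 2.12 CPM in the high set (median 1.47) and 0.321 to 0.924 CPM in the low set (median 0.757). Its groups did not overlap, which was the case for 8 genes on the high side (0.0372%) and 20 on the low side (0.0931%). The log2 difference was 1.08 ± 0.20 (edgeR's adjusted p = 0.111). TRNAK-CUU, a lysine tRNA, was at 0.390 to 1.82 CPM (median 1.59) against 0.289 to 0.644 CPM (median 0.580), and again high replicate 8 alone fell in the low range. TRNAP-AGG, a proline tRNA, was at 0.650 to 2.06 CPM (median 0.976) against 0.159 to 0.769 CPM (median 0.410). TRNAK-CUU reached the count minimum in 8 high libraries and 1 low library and TRNAP-AGG in 9 and 1, so both were tested because of their level in the high set, and their values are a description with no test.

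The tRNA rows were not uniform. TRNAC-GCA, the cysteine tRNA with the highest mean CPM, was at 2.73 to 4.15 CPM in the high set (median 3.06) and 1.96 to 4.13 CPM in the low set (median 3.14). Its log2 difference was 0.08 ± 0.14, and the sets overlapped throughout. The serine rows TRNAS-GCU and TRNAS-AGA had 0.58 ± 0.20 and 0.48 ± 0.31, the isoleucine row TRNAI-AAU 0.84 ± 0.25 and the histidine row TRNAH-GUG 0.38 ± 0.23. TRNAG-GCC, a glycine row, had 0.00 ± 0.20. Below 0 were TRNAI-GAU, another isoleucine row, with -0.42 ± 0.27, TRNAC-ACA with -0.17 ± 0.25 and TRNAR-UCU with -0.04 ± 0.20, named after their values had been seen. Without TRNAC-GCA the summed level still differed by 13.2 CPM between the set means, against 13.4 CPM with it.

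The difference in summed tRNA level was also present among libraries without Y-linked counts. There the 2 high libraries had 36.8 and 37.9 CPM and the 6 low libraries 20.3 to 27.1 CPM. Within the high set, the 5 libraries with numbers from 30226 to 31296 had 36.8 to 46.1 CPM, and the 4 with numbers of 50838 and more 25.2 to 41.0 CPM. With the share of reads in no feature as a covariate, TRNAY-GUA had a log2 difference of 0.89 and TRNAR-CCU 1.00. With Y-linked presence as a covariate these were 1.08 and 1.25.

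**Figure D2:**
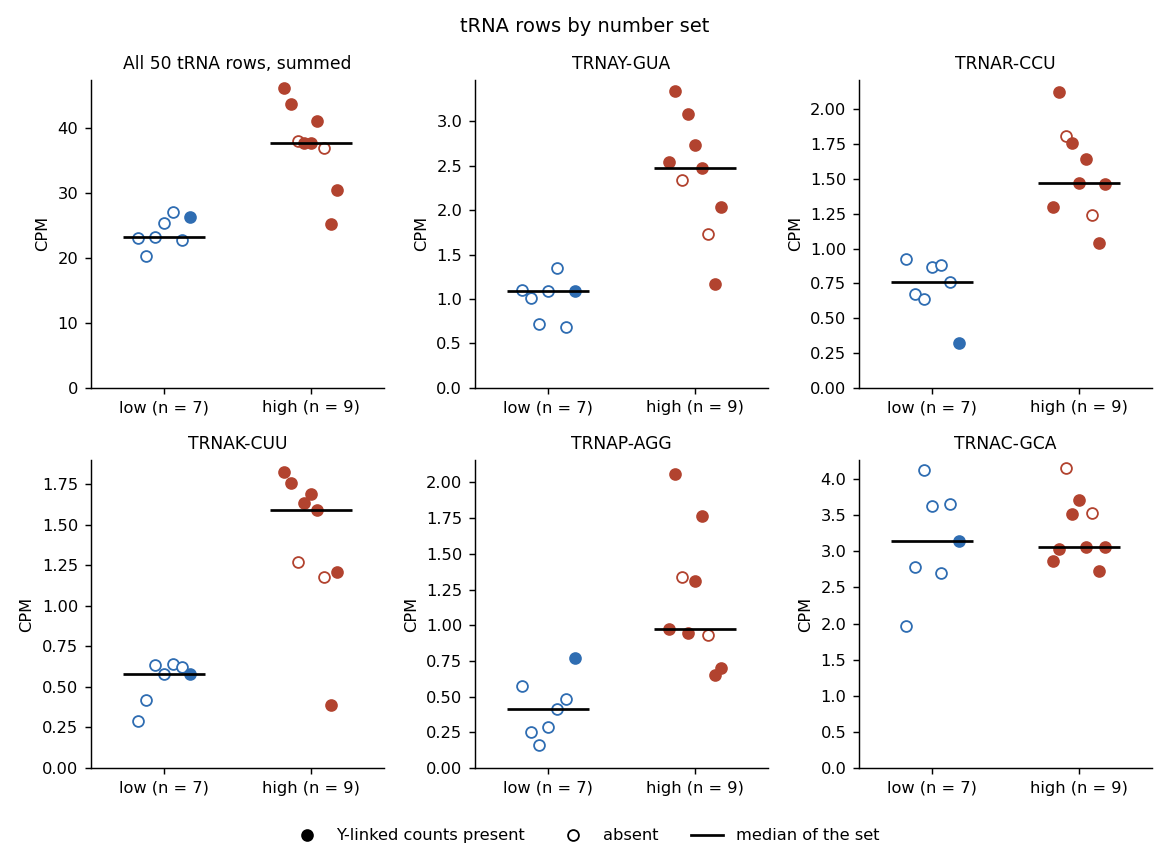
CPM of all 50 tRNA rows summed and of 5 single rows; each point is 1 library (7 low, 9 high), filled where Y-linked counts were present, and the line is the set's median. In the summed panel 1 high library, at 25.2 CPM, lies within the low range of 20.3 to 27.1 CPM, while TRNAC-GCA overlaps throughout.

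Brain cells make their own cholesterol, because the blood-brain barrier keeps out lipoproteins of the circulation. In the young brain much of it goes into myelin and new membranes. The enzymes run from acetyl-CoA through mevalonate and squalene to sterol rings, and their genes are driven together by the transcription factor SREBF2, which the escort protein SCAP carries to the Golgi for cleavage and the INSIG proteins hold back.

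Cholesterol synthesis genes had mostly small positive differences. All 20 listed genes were tested; 19 had a log2 difference above 0 (50.1% of all genes did) and the list's median was 0.20, against 0.00 for all genes. None was called by edgeR (smallest adjusted p 0.220) or by DESeq2. At an unadjusted p under 0.05, 10 of the 20 were on the higher side and 0 on the lower, against 6.33% and 7.73% of all genes. Summed, the 20 genes reached 1893 to 2519 CPM in the high set (median 2089) and 1539 to 2297 CPM in the low set (median 1906). The sets overlapped, with low replicate 5 at the top of the low set and high replicate 9 at the bottom of the high set.

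Of the steps up to squalene, several genes had values near 0.3. IDI1, which isomerizes the first isoprene unit, was at 158 to 215 CPM in the high set (median 182) and 109 to 196 CPM in the low set (median 148). Low replicates 3 and 5 lay within the high range, and all 9 high libraries lay above the low median. On the log2 scale the sets differed by 0.30 ± 0.10 (edgeR's adjusted p = 0.220). FDPS, the farnesyl pyrophosphate synthase, was at 67.1 to 85.2 CPM (median 71.3) against 43.7 to 76.6 CPM (median 61.4), and low replicates 2 and 5 lay within the high range. The difference was 0.29 ± 0.09 on the log2 scale (edgeR's adjusted p = 0.225). ACAT2, which joins acetyl-CoA units, had 0.30 ± 0.10, HMGCS1, the HMG-CoA synthase, 0.27 ± 0.11, and FDFT1, the squalene synthase, 0.23 ± 0.08. MVK, the mevalonate kinase, had -0.13 ± 0.12 and was the 1 gene of the list below 0.

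In the sterol ring steps, MSMO1, the C-4 methyl oxidase, had a log2 difference of 0.29 ± 0.10 (edgeR's adjusted p = 0.233). It was at 163 to 218 CPM in the high set and 108 to 190 CPM in the low set. SC5D had 0.25 ± 0.10, CYP51A1 0.23 ± 0.12, DHCR7 0.22 ± 0.10, SQLE 0.21 ± 0.10, NSDHL 0.19 ± 0.09 and EBP 0.15 ± 0.07. LSS, the cyclase that closes the rings, had 0.07 ± 0.09.

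The regulators lay on both sides of 0. Of 12 genes listed for sterol regulation and uptake, 11 were tested, with 5 above 0 (50.1% of all genes were) and a median of -0.07. At an unadjusted p under 0.05, 0 were on the higher side and 3 on the lower, against 6.33% and 7.73% of all genes. The 3 were MBTPS2 and MBTPS1, the proteases that cleave SREBF2, with -0.28 ± 0.09 and -0.13 ± 0.06, and INSIG2 with -0.20 ± 0.07. SREBF2 itself had -0.07 ± 0.08 and SCAP 0.05 ± 0.05; both are named for their role, after their values had been seen. STARD4, a sterol carrier, had 0.21 ± 0.10. Of 9 genes for export and turnover, 5 were above 0 (median 0.03). CYP27A1, a sterol hydroxylase, was the 1 at an unadjusted p under 0.05 (14.1% of all genes were), with 0.37 ± 0.17. High replicate 9 had 21.5 CPM of CYP27A1, against at most 13.6 CPM in the other high libraries. With 1 library left out the difference was 0.21 to 0.43. Of 12 fatty acid synthesis genes, 7 were above 0 (median 0.06) and 0 were at an unadjusted p under 0.05; FASN had -0.11 ± 0.06.

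The enzymes' median was smaller in the 2 fits with a covariate given here. With the share of reads in no feature as a covariate, the median of the 20 enzymes was 0.08, with 18 above 0. Of them 0 were at an unadjusted p under 0.05, against 4.29% of all genes in that fit. With Y-linked presence as a covariate the median was 0.15, with 20 above 0 and 2 at an unadjusted p under 0.05, against 3.57% of all genes in that fit. Of 18 mature myelin genes 18 were above 0, with a median of 0.25 and 0 at an unadjusted p under 0.05, against 50.1% and 14.1% of all genes. Their summed level was 2692 to 9929 CPM in the high set and 2470 to 10150 CPM in the low set. Among libraries without Y-linked counts the myelin median was -0.16 and the enzymes' median 0.22. High replicate 9 had the highest myelin sum of its set, 9929 CPM, and the lowest enzyme sum, 1893 CPM. High replicates 4 and 6 had the highest enzyme sums of the set, 2519 and 2482 CPM, with myelin sums of 7556 and 8774 CPM. Low replicate 5, highest in enzyme sum in the low set at 2297 CPM, had a myelin sum of 8198 CPM. How the 2 sums go together was not tested. In bulk tissue, fewer cells of a type and less RNA per cell cannot be told apart.

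**Figure D3:**
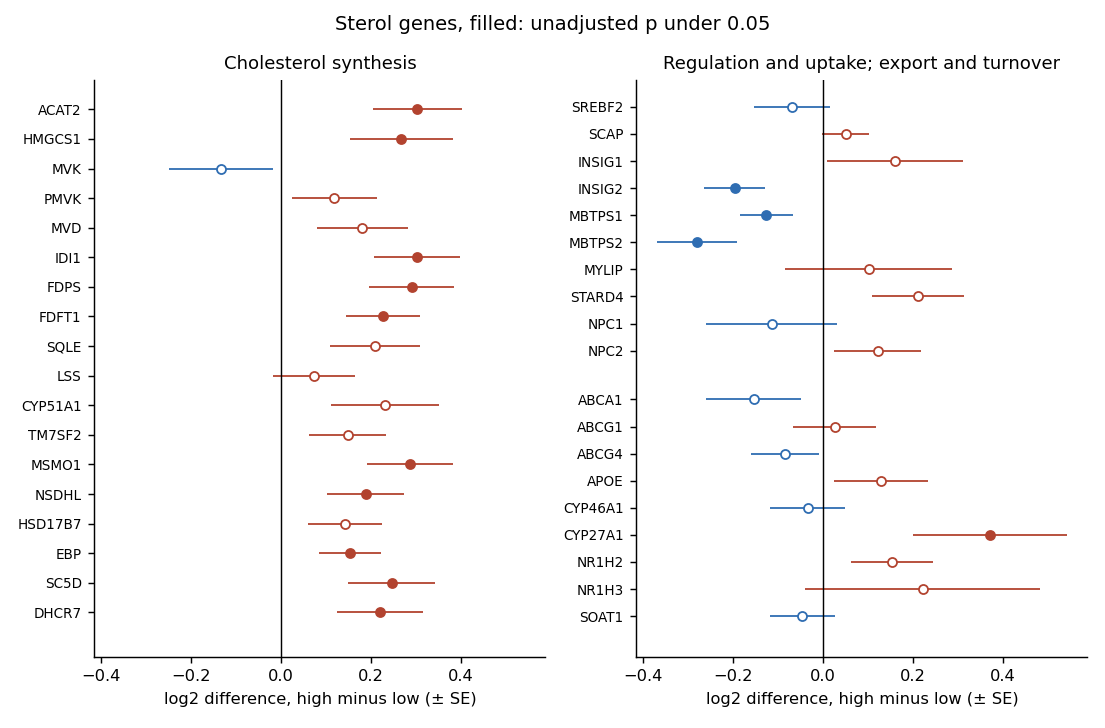
log2 difference, high minus low, with its standard error for cholesterol synthesis genes in pathway order (left) and for genes of sterol regulation, uptake, export and turnover (right); filled points have an unadjusted p under 0.05, and none passed after adjustment. On the left 17 of the 18 genes shown lie above 0 and MVK below; on the right genes lie on both sides.

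Scaffold proteins hold receptors and signalling enzymes in place at synapses. At excitatory synapses DLG proteins such as PSD-95 bind glutamate receptors, DLGAP proteins link them to SHANK proteins, and HOMER proteins and actin regulators attach below. Across the cleft, BSN, PCLO, RIM and UNC13 proteins build the active zone where vesicles fuse, and neurexins, neuroligins and latrophilins bridge both sides.

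Postsynaptic scaffold genes lay mostly slightly below 0, with the lowest values for SHANK2 and SHANK1. Of 33 genes, all tested, 26 had a log2 difference below 0 (49.9% of all genes did), and the median was -0.08. At an unadjusted p under 0.05, 9 were on the lower side and 1 on the higher, against 7.73% and 6.33% of all genes. edgeR called 0 of the 33. DESeq2 called 2 of them, both on the lower side and SHANK2 among them, against 0.902% of all genes on that side. SHANK2 was at 81.4 to 118 CPM in the high set (median 88.2) and 111 to 159 CPM in the low set (median 131). High replicate 9, at 118 CPM, was the 1 high library within the low range, whose lowest libraries, low replicates 7 and 5, were at 111 CPM. Its log2 difference was -0.46 ± 0.09 (edgeR's adjusted p = 0.115; DESeq2's adjusted p = 0.00305).

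IQSEC2, an activator of ARF GTPases, had -0.34 ± 0.10, and its relative IQSEC1 -0.26 ± 0.11. DLGAP2 had -0.29 ± 0.09, DLGAP4 -0.36 ± 0.14 and SHANK1 -0.44 ± 0.18. SIPA1L1, a Rap GTPase activator, had -0.24 ± 0.09 and LRRC7, the scaffold densin, -0.18 ± 0.07.

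The DLG genes themselves had smaller values. DLG4, which encodes PSD-95, had -0.13 ± 0.08, DLG2 -0.08 ± 0.07, DLG1 -0.06 ± 0.13 and DLG3 0.01 ± 0.08. SHANK3 had -0.08 ± 0.13, HOMER1 -0.17 ± 0.09 and DLGAP3 -0.02 ± 0.14. PPP1R9B, the actin-binding spinophilin, was the 1 gene on the higher side at an unadjusted p under 0.05, with 0.20 ± 0.09. Summed, the 33 genes reached 5995 to 7258 CPM in the high set (median 6717) and 6485 to 7916 CPM in the low set (median 7178), and the sets overlapped.

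At the active zone 2 giant scaffolds had the largest values. Of 16 genes, all tested, 11 were below 0, against 49.9% of all genes, with a median of -0.12. At an unadjusted p under 0.05, 5 were on the lower side and 0 on the higher, against 7.73% and 6.33% of all genes. With either covariate 2 of the 16 were at an unadjusted p under 0.05. Of all genes 4.29% were with the share in no feature and 3.57% with Y-linked counts as the covariate. PCLO was at 281 to 413 CPM in the high set (median 346) and 378 to 621 CPM in the low set (median 431). High replicate 9 was the 1 high library within the low range. Its high minus low difference on the log2 scale was -0.44 ± 0.10 (edgeR's adjusted p = 0.140; DESeq2's adjusted p = 0.0155). BSN was at 285 to 557 CPM (median 372) against 445 to 765 CPM (median 526), and high replicates 1 and 9 lay within the low range. Its log2 difference was -0.56 ± 0.14 (edgeR's adjusted p = 0.148; DESeq2's adjusted p = 0.0264). RIMBP2 had -0.23 ± 0.08, UNC13A, a vesicle priming factor, -0.19 ± 0.07 and APBA1 -0.17 ± 0.08. RIMS1 had 0.02 ± 0.08, named after its value had been seen. Summed, active zone genes reached 3395 to 4300 CPM in the high set and 4022 to 4903 CPM in the low set, with medians of 3770 and 4199.

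At inhibitory synapses NLGN2, the neuroligin of that synapse type, was at 52.7 to 75.7 CPM in the high set (median 57.0) and 67.7 to 92.5 CPM in the low set (median 83.0). High replicates 3 and 9 were the high libraries that reached into the low range. The log2 difference was -0.44 ± 0.09 (edgeR's adjusted p = 0.122; DESeq2's adjusted p = 0.00360). Of the 6 inhibitory scaffold genes 4 were below 0 (median -0.11), with 1 lower at an unadjusted p under 0.05, against 49.9% and 7.73% of all genes. GPHN, the gephyrin that anchors glycine and GABA receptors, had -0.06 ± 0.05.

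Adhesion genes and receptors gave a similar split within their lists. ADGRL1, a latrophilin listed as LPHN1, was at 94.4 to 127 CPM in the high set (median 114) and 130 to 160 CPM in the low set (median 139), and the groups did not overlap. This gave a log2 difference of -0.32 ± 0.06 (edgeR's adjusted p = 0.115). NLGN3 had -0.34 ± 0.09, NRXN3 -0.26 ± 0.08 and LRFN1 -0.24 ± 0.08. Of 14 adhesion genes 9 were below 0 (median -0.07), 4 of them at an unadjusted p under 0.05, against 49.9% and 7.73% of all genes. Of 18 glutamate receptor genes tested 11 were below 0 (median -0.06) and 3 of these at an unadjusted p under 0.05, where all genes had the same 49.9% and 7.73%: the NMDA receptor subunits GRIN1 with -0.24 ± 0.07 and GRIN2B with -0.40 ± 0.13, and the kainate receptor subunit GRIK5 with -0.40 ± 0.13.

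SHANK2, PCLO, BSN and NLGN2 stayed below 0 in the 2 fits with a covariate given here. With the share of reads in no feature as a covariate, SHANK2 had -0.29, PCLO -0.30, BSN -0.48 and NLGN2 -0.32. With presence of Y-linked counts these were -0.31, -0.34, -0.51 and -0.32. The postsynaptic median was -0.06 in both fits, with 2 genes each at an unadjusted p under 0.05, against 4.29% and 3.57% of all genes. Among libraries without Y-linked counts, the 2 high libraries summed to 3664 and 3770 CPM of active zone genes and the 6 low libraries to 4022 to 4903 CPM. For postsynaptic scaffold genes the same 2 high libraries summed to 6586 and 6803 CPM. That was within the range of the 6 low libraries, 6485 to 7916 CPM. These sums were not tested. Excitatory neuron markers had a median of -0.03 (5 of 8 below 0) and values from -0.37 to 0.22, with 1 lower at an unadjusted p under 0.05. Immature neuron markers had a median of 0.00 (6 of 12 below 0) and inhibitory neuron markers 0.01 (5 of 10 below 0), with 0 at that p. Of all genes 49.9% were below 0 and 7.73% lower at that p.

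**Figure D4:**
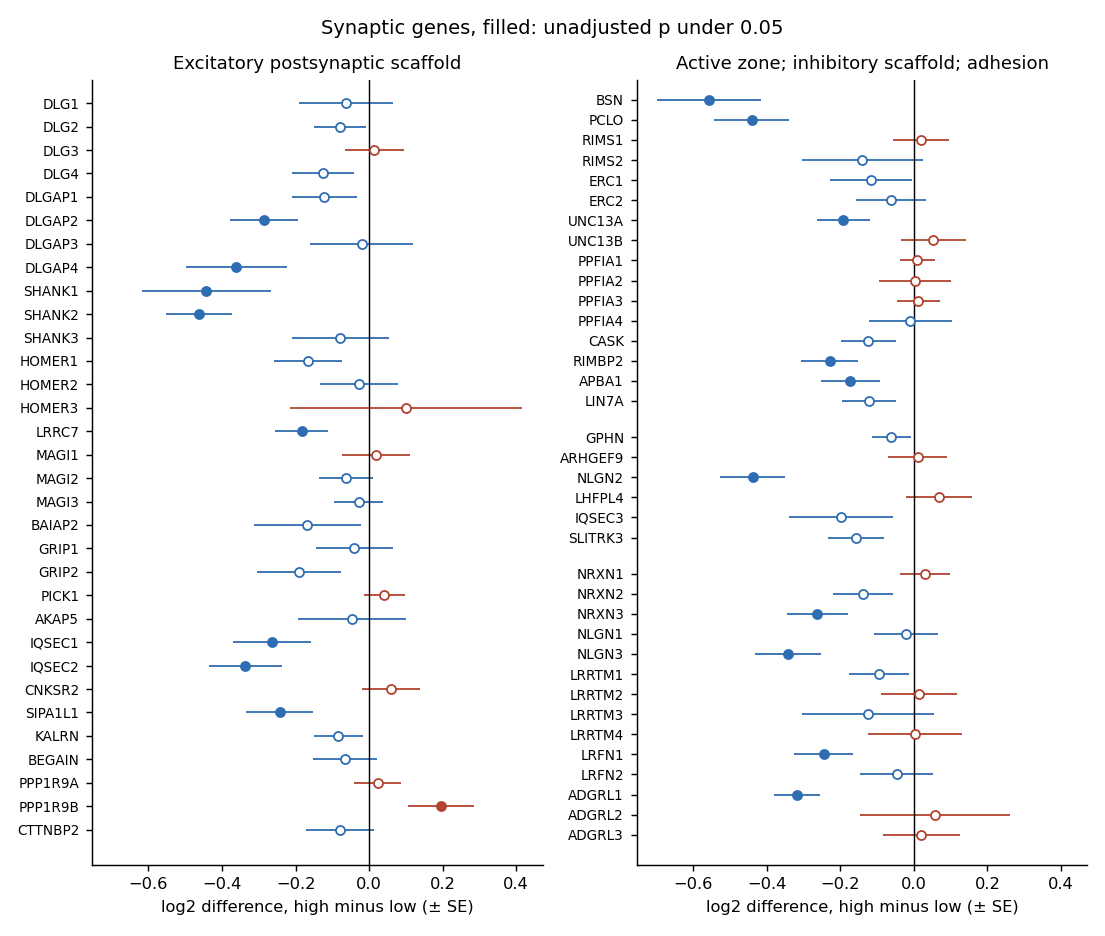
log2 difference, high minus low, with its standard error for genes of the excitatory postsynaptic scaffold (left) and of the active zone, the inhibitory scaffold and synaptic adhesion (right, separated by gaps); filled points have an unadjusted p under 0.05, and none passed after adjustment. SHANK2 at -0.46, PCLO at -0.44 and BSN at -0.56 lie on the lower side, while DLG3 and RIMS1 lie close to 0.

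Nuclear genes of oxidative phosphorylation and ribosomal protein genes, short and abundant transcripts often read as signs of RNA state, lay on the higher side. Of 20 oxidative phosphorylation genes tested 19 were above 0 (median 0.21), 15 of them at an unadjusted p under 0.05, against 50.1% and 6.33% of all genes. NDUFA4, a small respiratory chain subunit, was at 233 to 290 CPM in the high set (median 276) and 182 to 249 CPM in the low set (median 214), so the sets overlapped in part. Its log2 difference was 0.31 ± 0.08 (edgeR's adjusted p = 0.148). COX6C, a subunit of the same chain, had 0.23 ± 0.07. Of 70 ribosomal protein genes tested 67 were above 0 (50.1% of all genes were), with a median of 0.16. At an unadjusted p under 0.05, 25 were on the higher side and 0 on the lower, against 6.33% and 7.73% of all genes. RPL23A had 0.43 ± 0.10 (edgeR's adjusted p = 0.142), although processed copies of ribosomal protein genes make their counts uncertain.

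Both medians were smaller in the fits with a covariate. With the share of reads in no feature as a covariate the oxidative phosphorylation median was 0.06 and the ribosomal protein median 0.09; with presence of Y-linked counts they were 0.10 and 0.07. At an unadjusted p under 0.05 were then 1 and 0 of the 20 oxidative phosphorylation genes, and 4 and 2 of the 70 ribosomal protein genes, with the first and the second covariate. Of all genes 4.29% and 3.57% were in these fits. Of 9 heat shock genes 8 were above 0 (median 0.20), 3 of them at an unadjusted p under 0.05, against 50.1% and 6.33% of all genes. Among the 3 was HSP90AA1, a cytosolic chaperone, with 0.35 ± 0.11. HBB, the hemoglobin chain of red cells and the 1 blood gene tested, was at 0.325 to 5.79 CPM in the high set and 1.73 to 9.49 CPM in the low set, with a log2 difference of -1.51 ± 0.49 (edgeR's adjusted p = 0.229). Striatal and thalamic genes had a median of -0.85, which was 0.10 without low replicate 2.

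**Figure D5:**
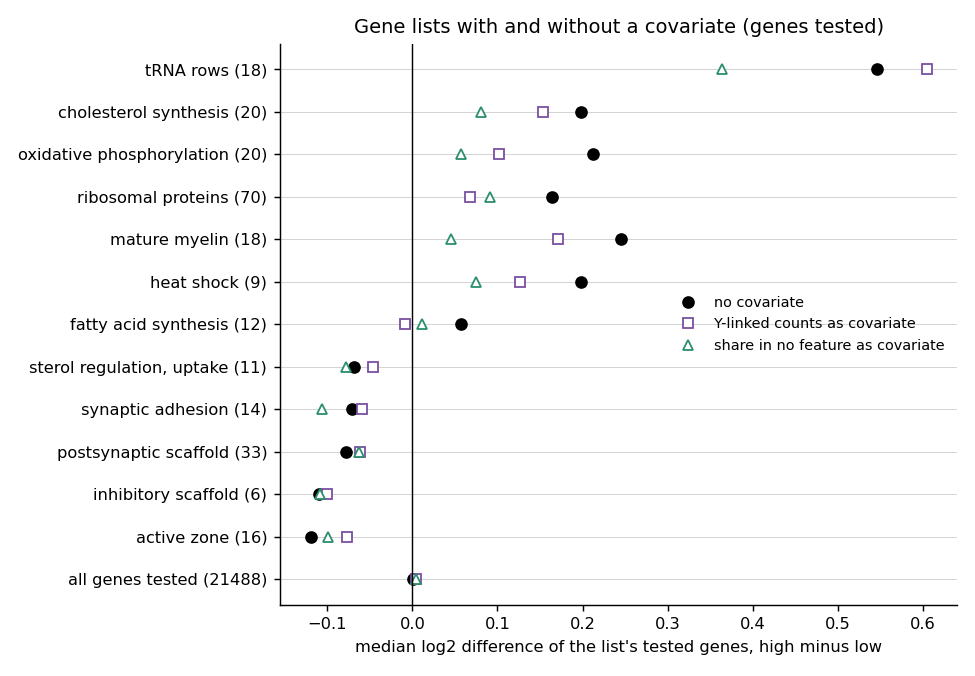
Median log2 difference, high minus low, over the tested genes of each list, from the fit without a covariate (circles), with presence of Y-linked counts (squares) and with the share of reads in no feature (triangles) as a covariate; the number tested is in brackets. Cholesterol synthesis is at 0.20, 0.15 and 0.08, the postsynaptic scaffold at -0.08, -0.06 and -0.06, and all genes at 0.00 in each fit. The tRNA rows shown are the 18 that passed the count filter. Some of them passed through the high set alone, so their medians only describe these rows and cannot be set beside the other lists.

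Among all genes, those with the smallest p were mostly on the lower side; they are named here after their values had been seen. LMTK2, a membrane kinase, was at 120 to 148 CPM in the high set (median 134) and 154 to 185 CPM in the low set (median 172), and the groups did not overlap. High minus low, the log2 difference was -0.32 ± 0.05 (edgeR's adjusted p = 0.0717). CX3CL1, the neuronal chemokine fractalkine, was at 113 to 148 CPM against 155 to 196 CPM, again without overlap, with -0.39 ± 0.07 (edgeR's adjusted p = 0.106). TTYH3 had -0.47 ± 0.09, ANKRD52 -0.38 ± 0.07, POLR2A, the large subunit of RNA polymerase II, -0.36 ± 0.08, and KMT2D, a histone methyltransferase, -0.51 ± 0.11.

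The 16 other libraries of the series do not separate the number from the opening digits: those that start with 2009 (14 libraries) all have numbers below 20000 and the 2 that start with 2011 have higher ones. With all 32 libraries scaled together, summed tRNA rows were at 19.9 to 29.7 CPM in the 2009 libraries (median 26.2) and at 26.1 and 44.4 CPM in the 2011 libraries. On that scale the high set was at 24.9 to 45.6 CPM and the low set at up to 26.8 CPM, with a median of 22.9 CPM. Postsynaptic scaffold genes summed to 6791 to 7827 CPM in the 2009 libraries and to 5708 and 6391 CPM in the 2011 libraries. Y-linked counts were present in 6 of 14 and 2 of 2 of them. Number, opening digits and Y-linked counts cannot be told apart in that comparison, and it was not tested.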

How the data were processed

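Sequencing reads of 32 hippocampal libraries had been counted per gene by the authors, and the deposited table holds these counts without normalization; STAR and HTSeq are named in the submitters' processing notes, while for versions, genome build, annotation and strand setting the sources used here give no entry. Genes that overlap a neighbour or have near-identical copies are therefore uncertain. The 5 rows for reads outside genes entered neither library sizes nor tests. Of 33994 gene rows, 21488 passed filterByExpr (minimum count 10, minimum total 15, minimum proportion 0.7) over the 16 compared libraries. Libraries were scaled by TMM and tested with edgeR 4.0.16 (R 4.3.3) by its quasi-likelihood test with a threshold of 0.05; differences are log2 values ± SE. Alternatives were other scalings and filters, DESeq2 1.42.0, limma-trend (limma 3.58.1), covariates, subsets and leaving out each library; scripts were tested on simulated data. The subset without Y-linked counts, the subset without the libraries highest in PENK and in TTR, and Fisher's test were added after seeing the data.

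Named were up to 4 genes of smallest p per list, any cholesterol synthesis or postsynaptic scaffold gene, and tRNA rows of the highest mean CPM or smallest p; other names are marked in the text. Members and lists were chosen with earlier results of these data known. Reference names come from mChlSab1.0.hap1, without coordinates. Some listed genes are not reported by name here and are not drawn, but count in their lists. A promoter motif search was planned and not run.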

Additional observations from a re-analysis of the deposited data

Results flagged for a closer look

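A set's highest or lowest library was marked where its gap to the next library exceeded Dixon's 95% critical value for a set of 9 or 7. Of 264 sets of values examined, 24 were marked; chance marks about 1 in 20.

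High replicate 9, the library with the highest VMT number, stood above the rest of the high set in several scaffold genes. It had 252 CPM of SHANK1 (next library 165), 260 of SHANK3 (174), 146 of IQSEC2 (119), 75.0 of DLGAP4 (56.5) and 116 of IQSEC3 (86.1). It also had 634 CPM of SCD, a fatty acid desaturase (508), and 21.5 of CYP27A1 (13.6).

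High replicate 8 was lowest in the high set for TRNAK-CUU (0.390 CPM), STARD4 (19.2 CPM) and NRXN3 (201 CPM), and highest for summed ribosomal protein genes (5004 CPM).

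High replicate 3 had 392 CPM of TTR, 163 of PENK, 431 of summed choroid plexus genes and 425 of summed striatal and thalamic genes. Low replicate 2 had 460 CPM of PENK and 1270 of summed striatal and thalamic genes. Low replicate 1 had 15.7 CPM of TTR.

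Of the other low libraries, replicate 4 was highest for summed active zone genes (4903 CPM) and MBTPS1 (83.9 CPM), replicate 5 for TRNAI-UAU (0.879 CPM) and STARD4 (32.3 CPM), and replicate 6 lowest for TRNAD-GUC (0.138 CPM). High replicate 5 had the most reads of its set, 51208033.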

How the results depend on the processing

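Counts of called genes depended on the tool and on single libraries. DESeq2 called 198 genes, where edgeR called 0. Among them were 1 of 18 tRNA rows, on the higher side, and 5 synaptic scaffold genes on the lower side (SHANK2, BSN, PCLO and NLGN2 among them). These were 2 of 33 postsynaptic, 2 of 16 active zone and 1 of 6 inhibitory scaffold genes. Of all genes with an adjusted p from DESeq2, 0.214% were called higher and 0.902% lower. DESeq2 gave no adjusted p to TRNAR-CCU, TRNAK-CUU, TRNAP-AGG and TRNAD-GUC, so these rows could not be called. Leaving out each library gave 0 to 21 called genes. The most, 21 of 21661 tested, came without low replicate 7, with TRNAY-GUA, SHANK2 and NLGN2 among them. Without high replicate 8, the 1 high library in the low range of both rows, TRNAY-GUA and TRNAK-CUU were called, 2 of 21406 tested. TRNAK-CUU was tested because of its level in the high set, so its call is no test of that row. Without low replicate 7, the 1 low library with Y-linked counts, 13 of the 21 were higher and 8 lower. Of the higher ones 5 were Y-linked genes of the list, with log2 differences of 5.61 to 10.5. All the others except TRNAY-GUA were rows without a gene name, with 3.69 to 10.4, such as LOC103246967 and LOC103246992. Their chromosome was not available here, so the 5 are not a full count of Y-linked calls. The remaining edgeR and limma settings called 0. Genes at an unadjusted p under 0.05 numbered 767 with Y-linked counts and 922 with the share in no feature as a covariate, 1071 with the share of several alignments, 596 among libraries without Y-linked counts and 2255 to 3649 with 1 library left out.

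Leaving out each library, the difference in the share in no feature was -4.63 to -3.38 percentage points, in several alignments 1.21 to 1.83, in ambiguous reads 0.0117 to 0.0167, in genes 2.02 to 2.94 and in all reads -1389 to 2743930 reads. Adjusted p under 0.05 was reached for shares without low replicate 5 or 7 or high replicate 3 or 8. As a share of reads outside the no-feature row, reads in genes differed by -1.67 percentage points, the other way.

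No paired analysis was possible because replicate numbers follow only the order of deposition. Few tRNA counts per library limit single rows; 9 against 7 libraries limit small differences.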
